A study of Mus musculus with 9 samples.

Results

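Collagens were examined as a gene family in RNA of the mouse seminal vesicle, the male accessory gland whose secretion makes up much of the seminal fluid. Members were the protein-coding genes of the GENCODE mouse release M21 annotation whose symbol has the form Col, a number, a and a number, and 44 of the 53379 genes in the count table met this rule. They fall into 11 fibrillar genes, 9 basement membrane genes and 24 others. Bulk total RNA was sequenced from seminal vesicle at 3, 13 and 21 months of age, with 3 libraries per age and 9 in all. The labels give tissue and age, and no strain, genotype or treatment. They do not say that replicates are separate animals, so p-values measure the spread between these libraries, which may be technical.

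Collagens are triple helices of alpha chains, each chain the product of its own gene. Fibrillar collagens here are types I, II, III, V, XI, XXIV and XXVII. Among them, types I, III, V and XI form the banded fibrils of connective tissue, made mostly by fibroblasts and, in hollow organs, smooth muscle cells. Type IV collagen forms the sheet-like network of basement membranes under epithelia and around muscle fibres and vessels, and type VI forms beaded filaments beside it. In the seminal vesicle, a folded secretory epithelium rests on a basement membrane, a thin connective tissue layer and a coat of smooth muscle.

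Total counts ran from 16536160 to 24791943 per library. Levels are given as counts per 1000000 counts (CPM) of the library size after TMM scaling, and a floor of 3 counts corresponds to 0.108 to 0.213 CPM in 1 library. TMM (trimmed mean of M-values) factors ran from 0.8153 to 1.637, the highest in 21-month replicates 1 and 2. Those 2 libraries also stood apart in the markers of other tissues. The summed level of 4 prostate epithelial markers was 15700 CPM in 21-month replicate 1 and 0.0576 to 0.716 CPM in the other 8 libraries. The summed level of 8 adipocyte markers was 213 and 1700 CPM in 21-month replicates 1 and 2 and 13.0 to 34.1 CPM in the other 7. In 21-month replicate 3 the adipocyte genes Adipoq, Plin1, Lep, Cidec and Retn and the prostate genes Pbsn, Tgm4 and Msmb had no count. Summed over 9 genes, the seminal vesicle secretory markers ran from 135000 CPM in 21-month replicate 1 to 710000 CPM in 13-month replicate 1. Results at 21 months are also given with replicate 3 alone where that changes them. In bulk RNA, fewer cells of a type and less RNA per cell cannot be told apart.

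Of the 44 members, 34 had enough counts for testing (9 of 11 fibrillar, 9 of 9 basement membrane and 16 of 24 others). The 10 not tested were Col2a1, Col9a1, Col9a2, Col9a3, Col10a1, Col19a1, Col22a1, Col24a1, Col25a1 and Col28a1. They include the main cartilage collagens, type II with its partner type IX and the hypertrophic cartilage collagen type X. Col10a1 had no count in any library, and the other 9 had at most 16 counts in a library, with the exception of 73 counts of Col28a1 in 21-month replicate 2. Ages were compared by the edgeR quasi-likelihood F test on all 16067 tested genes, with Benjamini-Hochberg adjusted p under 0.05 as the threshold.

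Divided by the length of the gene's merged exons, the highest mean collagen level over the 9 libraries was that of Col6a1, a chain of type VI, at 17.6 ± 5.39 CPM per kilobase (SD, n = 9). Col3a1, the single chain of type III collagen, followed at 13.4 ± 7.81 CPM per kilobase. Col4a1 and Col4a2, which together make the ubiquitous type IV molecule, had levels of 11.8 ± 5.80 and 7.16 ± 2.95 CPM per kilobase. Col3a1 lay within 1 SD of Col6a1, whereas Col4a2 lay further below Col6a1 than the sum of both SDs. Col7a1, the anchoring fibril collagen that ties epithelia to the stroma, was at rank 6 over all libraries with 6.97 ± 2.15 CPM per kilobase, and at ranks 9, 3 and 7 at 3, 13 and 21 months. Col1a2 had a level of 5.84 ± 2.30 and Col1a1 one of 3.21 ± 1.22 CPM per kilobase. Col4a6 was at rank 5 with 7.11 ± 11.0 CPM per kilobase, which rested on 1 library: it ranked 11 at 3 months and 11 at 13 months. With the longest annotated transcript as length in place of merged exons, the 10 genes of highest level were the same 10, but their order turned: Col3a1 was first at 23.7 CPM per kilobase, ahead of Col6a1 at 18.8, Col1a2 at 13.6 and Col4a1 at 13.4. Col4a3 had a mean level of 0.492 ± 0.187 CPM per kilobase, far below Col4a1, and Col11a1 was lowest of the tested genes at 0.0578 ± 0.0585 CPM per kilobase.

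**Figure D1:**
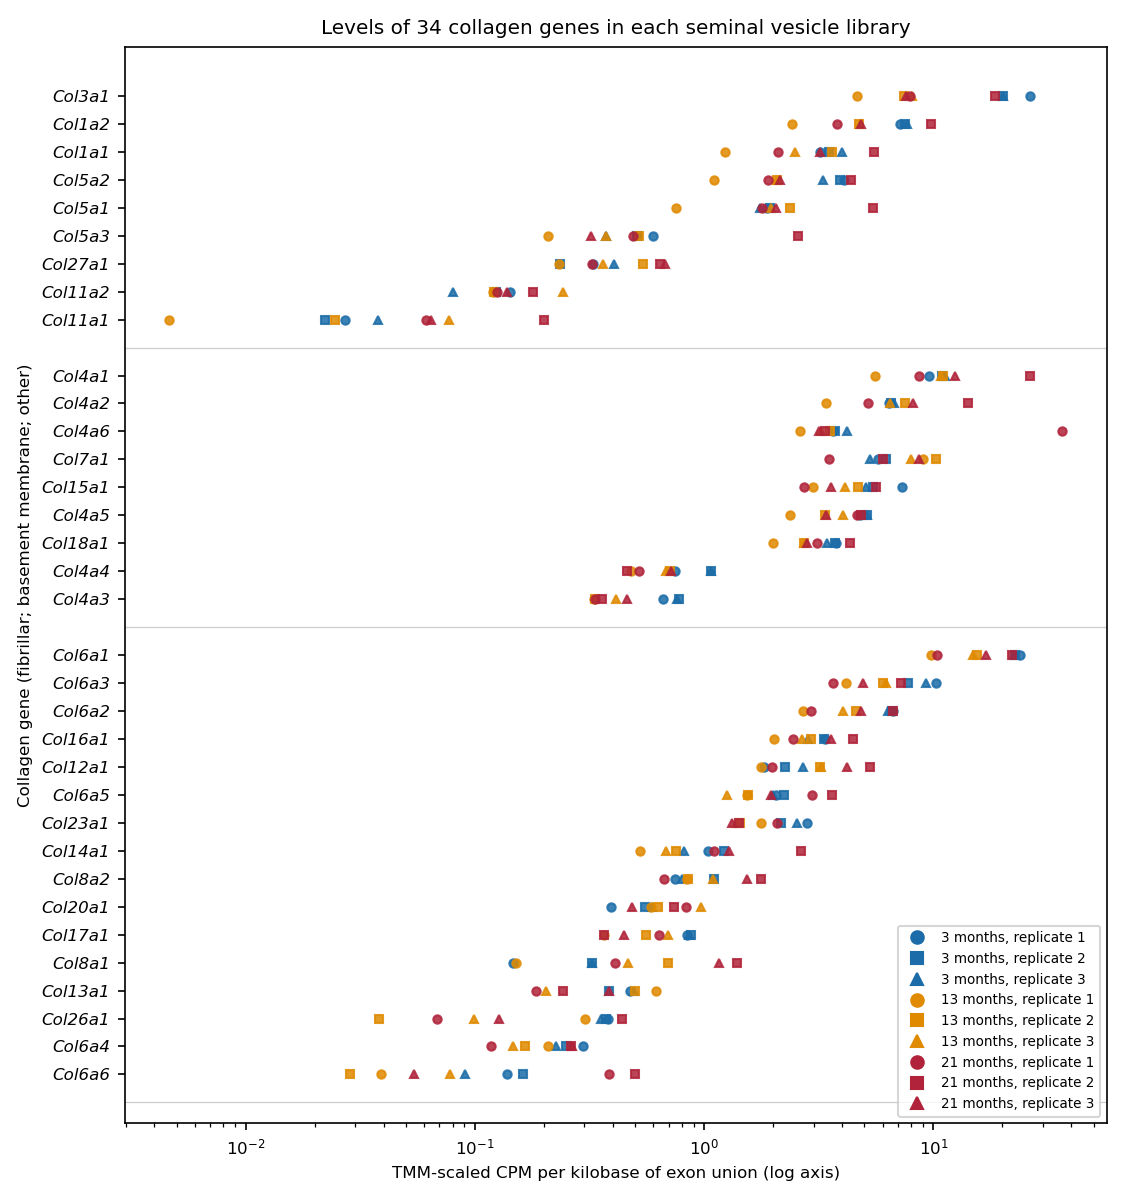
Level of each of the 34 tested collagen genes in each of the 9 libraries, in TMM-scaled CPM per kilobase of merged exons on a log axis, ordered by mean level within the fibrillar, basement membrane and other classes; each point is 1 library. The 3-month points of Col3a1 and Col4a3 lie to the right of the 13-month points, those of Col7a1 lie to the left, and 1 point of Col4a6 (21-month replicate 1) stands far to the right of its other 8.

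At 13 months the levels of many collagen genes lay below those at 3 months, but no single gene passed the test. All 3 libraries of 13 months were below all 3 of 3 months for 19 of 34 tested collagen genes (55.9%), where 9.33% of all tested genes showed this. These 19 span types I, III, IV, V, VI, XIV, XV, XVII, XVIII, XXIII and XXVI. The opposite arrangement was found for 1 collagen gene, Col7a1 (2.94%), beside 8.18% of all tested genes. Leaving out a library cannot undo such a separation, so these numbers can only stay or rise. Without 13-month replicate 1, the library lowest for 20 of the 34 collagen genes, the number lower stayed at 19. The share of all tested genes that were lower rose to 17.8%. The number of collagen genes higher rose to 5 (14.7%, beside 18.2%).

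By the edgeR quasi-likelihood test 0 of 34 collagen genes passed at 13 against 3 months, beside 0.454% of all tested genes. At an unadjusted p under 0.05 there were 14, beside 7.24% of all tested genes. Of these 13 were lower (38.2%, beside 3.75% of all tested genes) and 1, Col7a1, was higher (2.94%, beside 3.49%). DESeq2 called 2 genes, Col3a1 and Col4a3, both lower (5.88%, beside 1.31% of all tested genes), and limma-voom called 0, beside 0.367%. The median log2 fold change was -0.55 over the tested collagen genes and 0.008 over all tested genes, and 8 collagen values were positive (23.5%, beside 51.4% of all tested genes). By class the median was -0.42 for fibrillar, -0.55 for basement membrane and -0.62 for the other genes. With only the 6 libraries of these ages in the fit, 7 collagen genes passed (beside 1.55% of all genes tested in that fit): Col3a1, Col4a3, Col5a2, Col6a1, Col6a2 and Col23a1 lower and Col7a1 higher. Libraries of 21 months do not enter this difference itself but share the estimate of spread, and leaving out 21-month replicate 1, 2 or 3 gave Col3a1 and Col4a3, Col3a1, or Col4a3, respectively, beside 0.925%, 0.40% and 0.466% of all tested genes.

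At 21 against 3 months 1 collagen gene passed the test: Col4a3, a chain of the specialised type IV collagen network, fell to 0.525 times its 3-month level. It was 1 of 34 (2.94%), beside 2.02% of all tested genes called and 0.766% called lower. Libraries did not overlap for 8 collagen genes that were lower (23.5%, beside 14.7% of all tested genes) and for 2 that were higher, Col8a1 and Col11a1 (5.88%, beside 14.8%). The 8 lower genes were Col3a1, Col4a3, Col4a4, Col6a1, Col6a3, Col13a1, Col17a1 and Col23a1. The median log2 fold change was 0.049 over the collagen genes, and 0.007 over all tested genes, and 18 collagen values were positive (52.9%, beside 50.7% of all tested genes). Without 21-month replicate 2, the library with the highest value for 18 of the 34 genes, the median was -0.29.

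When 21-month replicate 3 alone stood for its age, 20 of 34 collagen genes (58.8%) lay below every 3-month library, beside 31.0% of all tested genes. Another 11 (32.4%) lay above, beside 30.4%. With fewer libraries these numbers can only stay or rise. Fits with that single library take their spread from the other ages and assume that it varies as they do. With all libraries, 9 collagen genes had an unadjusted p under 0.05 (26.5%, beside 24.4% of all tested genes), 3 of them higher (8.82%, beside 14.1%) and 6 lower (17.6%, beside 10.3%). DESeq2 called Col4a3, Col4a4, Col6a3 and Col23a1 lower and Col8a1 higher (14.7%, beside 9.35% of all tested genes), and limma-voom called Col4a3 alone, beside 0.958%. The direction at 21 months depended on the scaling: library totals in place of TMM moved the median of all tested genes by 0.608 on the log2 scale. Then 15 of 34 collagen genes passed, all higher, beside 35.4% of all tested genes called in either direction. Values at 21 months are thus relative to TMM, under which the median gene does not move.

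Between 13 and 21 months levels were mostly higher at the later age, and again no gene passed. By the edgeR quasi-likelihood test 0 of 34 collagen genes passed, beside 0.00622% of all tested genes. At an unadjusted p under 0.05 there were 6 (17.6%), beside 15.7%, all of them higher, beside 10.1% for higher and 5.64% for lower: Col4a6, Col5a3, Col6a5, Col6a6, Col14a1 and Col18a1. Libraries did not overlap for Col6a5, Col14a1 and Col18a1, which were higher at 21 months (8.82%, beside 7.99% of all tested genes), and for 0 genes in the other direction, beside 8.25%. Without 13-month replicate 1 these numbers, which can only stay or rise with fewer libraries, were 3 and 0, beside 10.6% and 11.3%. When 21-month replicate 3 alone stood for its age, 17 genes lay above every 13-month library (beside 22.7% of all tested genes) and 2, Col20a1 and Col23a1, lay below (5.88%, beside 23.1%). The median log2 fold change was 0.50 over the collagen genes and 0.005 over all tested genes, and 27 collagen values were positive (79.4%, beside 50.7%). It was 0.17 without 21-month replicate 2. DESeq2 called Col6a5, Col6a6 and Col14a1 higher (8.82%, beside 2.66% of all tested genes), and limma-voom called 0, beside 0.0187%. The comparisons with 3 months share the 3-month libraries, and those with 13 months share the 13-month ones, so the 3 sets of values are not independent.

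**Figure D2:**
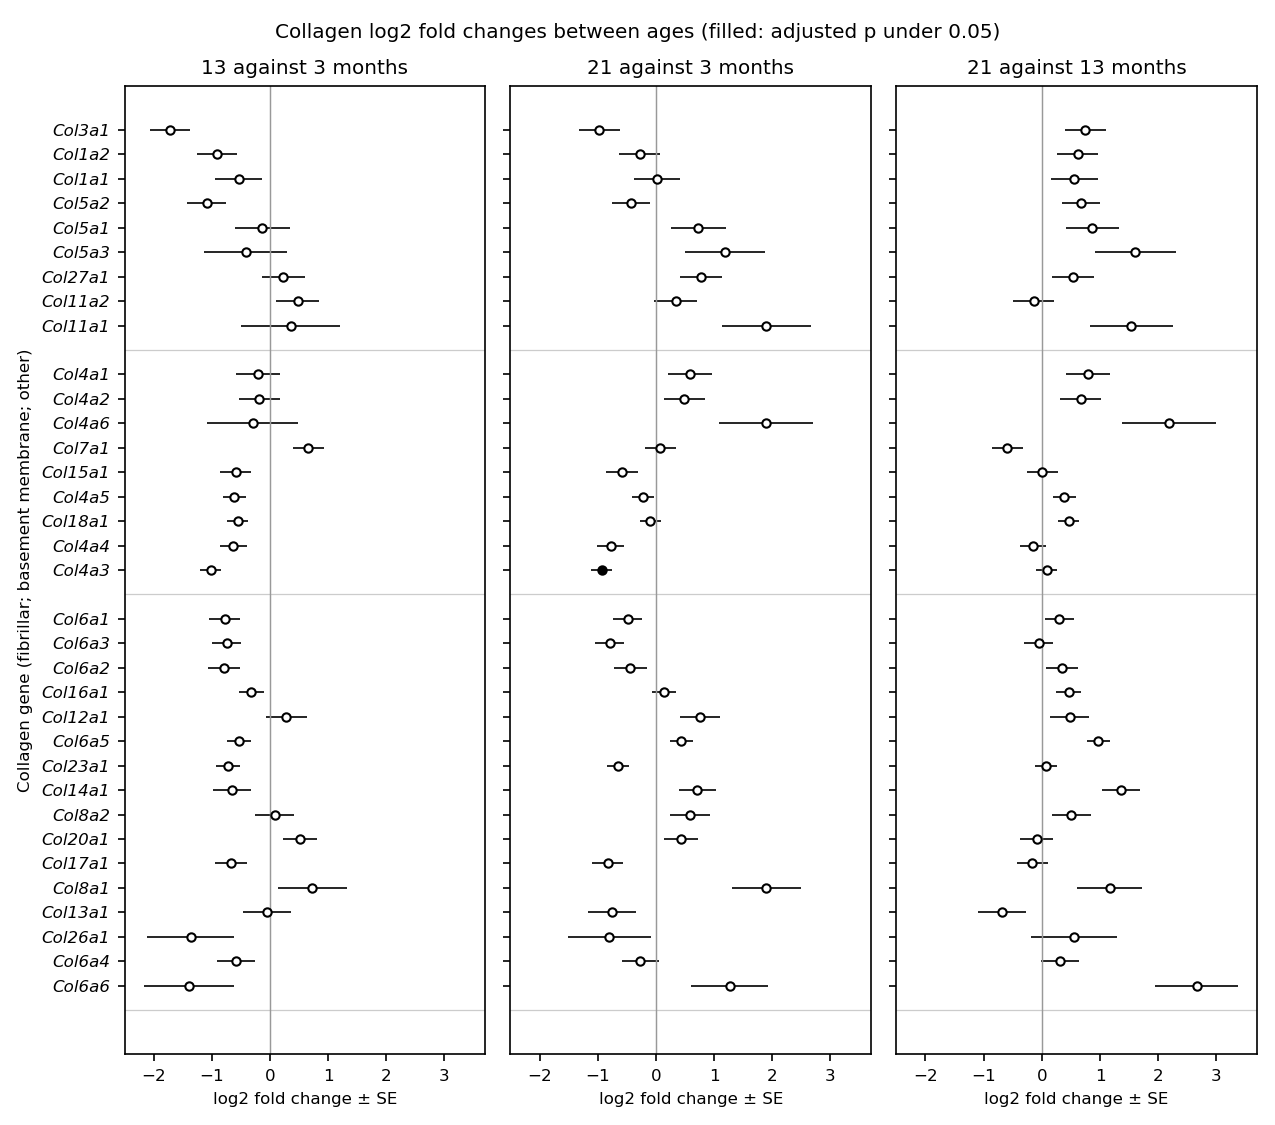
Log2 fold change (later over earlier age) with its standard error for each tested collagen gene in the 3 comparisons, ordered as in the plot of levels; a filled point has an adjusted p under 0.05. The 13 against 3 months values lie mostly left of 0, the 21 against 13 months values mostly right of it, and Col4a3 at 21 against 3 months is the single filled point.

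Among the fibrillar genes, Col3a1 (ENSMUSG00000026043, GRCm38 chromosome 1, 45311538 to 45349706) had the widest difference in level between 3 and 13 months. Type III collagen makes the fine, distensible fibrils of hollow organs and vessels. Its level was 259, 197 and 197 CPM in the 3 libraries of 3 months, 45.6, 73.1 and 79.5 CPM at 13 months, and 77.3, 182 and 74.6 CPM at 21 months. Every 3-month library was above every later one, and 21-month replicate 2 was the highest of the later libraries. The log2 fold change at 13 against 3 months was -1.72 ± 0.35 (SE), 0.304 times the 3-month level, and missed the threshold (edgeR quasi-likelihood adjusted p = 0.0938). It was past the threshold in 6 of 20 alternative analyses, among them DESeq2 (adjusted p = 0.000169) the fit of 6 libraries (0.0029) and the fits without 21-month replicate 1 (0.0433) or replicate 2 (0.0154). At 21 against 3 months the log2 fold change was -0.97 with an edgeR adjusted p of 0.135, and without 21-month replicate 2 it was -1.52 with an adjusted p of 0.0444. The 250 bases before its start site (RefSeq, GRCm38.p6, chr1:45311288-45311537, plus strand) are shown as the upstream sequence of the fibrillar gene with the widest difference, with the match to TATAAA in capitals.
Col3a1: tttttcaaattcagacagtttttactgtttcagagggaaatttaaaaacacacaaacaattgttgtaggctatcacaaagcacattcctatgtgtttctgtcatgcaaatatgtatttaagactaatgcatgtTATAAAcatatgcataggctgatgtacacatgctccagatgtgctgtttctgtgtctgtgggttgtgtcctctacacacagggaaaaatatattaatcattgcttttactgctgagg

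Both strands were searched for the TATA box core, which reads TATAAA, for the CCAAT box, searched as CCAAT, and for the GC box, searched as GGGCGG. Matches of different motifs do not overlap in the sequences shown, and a match is a description of the sequence. The Col3a1 window held 1 TATAAA, near the middle of the window and not close to the start site, and neither of the others. TATAAA occurred in the same window of 13.0% of 27025 genes, CCAAT in 34.5% and GGGCGG in 32.9%. Of the collagen genes, 35 had a window in the table, and TATAAA was found in 5 of them (14.3%), CCAAT in 12 (34.3%) and GGGCGG in 21 (60.0%).

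The type I chains assemble as a heterotrimer of the Col1a1 and Col1a2 products and make the thick fibrils of stiff tissue. Col1a2 had 88.7, 93.4 and 95.3 CPM at 3 months, 30.0, 58.8 and 59.2 CPM at 13 months and 47.0, 121 and 59.8 CPM at 21 months. Its 13-month libraries lay below the 3-month ones, and 21-month replicate 2 was above all. Its log2 fold change at 13 against 3 months was -0.91 ± 0.35 with an edgeR adjusted p of 0.587. Col1a1 had 21.1, 22.9 and 26.2 CPM at 3 months, 8.10, 23.8 and 16.4 CPM at 13 months and 13.8, 36.3 and 21.1 CPM at 21 months. Its 3 ages overlapped, and the log2 fold change at 13 against 3 months was -0.54 ± 0.40.

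Type V collagen is built into type I fibrils and limits their diameter. Col5a2, the neighbour of Col3a1 on chromosome 1 with the ends of both genes facing each other across 24614 bases, had 39.1, 37.5 and 31.6 CPM at 3 months. It had 10.6, 20.0 and 20.0 CPM at 13 months and 18.2, 41.7 and 20.5 CPM at 21 months. Its 3- and 13-month libraries did not overlap, and the log2 fold change was -1.09 ± 0.33 with an edgeR adjusted p of 0.378. Col5a1 had 15.9, 16.5 and 14.9 CPM at 3 months, 6.39, 20.0 and 16.6 CPM at 13 months and 15.2, 46.1 and 17.4 CPM at 21 months. The Col5a1 ages overlapped, and its log2 fold change at 13 against 3 months of -0.13 turned to 0.21 without 13-month replicate 1. Col5a3 reached 17.5 CPM in 21-month replicate 2, against 1.42 to 4.09 CPM in the other 8 libraries. That library also had the highest summed adipocyte markers, and their part in the Col5a3 level was not tested. The rare fibrillar gene Col11a1, named after its values were seen, was at 0.284 to 0.483 CPM at 3 months and 0.780 to 2.56 CPM at 21 months, a log2 fold change of 1.90 ± 0.76 with an edgeR adjusted p of 0.168. These values are near the floor of 3 counts: Col11a1 had 6, 4 and 7 counts at 3 months and 1, 6 and 22 at 13 months. At 21 months it had 21, 71 and 18 counts, the most in replicate 2.

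Of 12 fibroblast markers, Pdgfra and Dpt had 13-month libraries below all 3-month ones, beside 9.33% of all tested genes. None had the opposite arrangement, beside 8.18%, and the other 10 overlapped. Pdgfra had 38.1 to 44.6 CPM at 3 months and 28.7 to 35.9 CPM at 13 months, and Dpt had 21.0 to 29.9 and 11.7 to 19.0 CPM. The summed level of 12 fibroblast markers was 324, 428 and 392 CPM at 3 months, 285, 682 and 478 CPM at 13 months and 516, 1230.0 and 777 CPM at 21 months. Fn1 made up much of the sum, with 49.8 to 104 CPM at 3 months and 90.8 to 394 CPM at 13 months. None of the 12 passed the edgeR test at 13 against 3 months, beside 0.454% of all tested genes. At an unadjusted p under 0.05 there was 1, beside 7.24%, and the median log2 fold change of the 12 was -0.27. At 21 against 3 months Dcn, Fbln1, Pi16, Fn1 and Postn were higher without overlap (beside 14.8% of all tested genes). In that comparison 0 markers were lower without overlap (beside 14.7%), and the median was 0.75. Summed smooth muscle markers (10 genes) were 3020, 3790 and 4250 CPM at 3 months and 2740, 4940 and 5530 CPM at 13 months. At 21 months they were 3240, 5880 and 4260 CPM. The lowest and highest sums were in 13-month replicate 1 and 21-month replicate 2, which hold most of the lowest and highest collagen values. However, 13-month replicates 2 and 3 lay above all 3-month libraries, and the median log2 fold change of these markers at 13 against 3 months was 0.31. The part of fibroblast and smooth muscle content in the collagen values was not tested.

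The 6 type IV genes lie in 3 head-to-head pairs, each pair read in opposite directions from neighbouring starts. Col4a1 and Col4a2 are the chains of basement membranes everywhere. Col4a3, Col4a4 and Col4a5 form the network of the kidney glomerulus and some other epithelia, the one affected in Alport syndrome. Col4a5 and Col4a6 form another network, found under stratified and glandular epithelia and around smooth muscle.

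Col4a3 (ENSMUSG00000079465, GRCm38 chromosome 1, 82586921 to 82722059) was the collagen gene that passed the test. Its level was 6.57, 7.73 and 7.59 CPM at 3 months, 3.31, 3.34 and 4.12 CPM at 13 months and 3.34, 3.57 and 4.59 CPM at 21 months. Every later library was below every 3-month library. At 21 against 3 months it fell by 0.93 ± 0.18 on the log2 scale (edgeR quasi-likelihood adjusted p = 0.0426). At 13 against 3 months the log2 fold change was -1.02 ± 0.18, just short of the threshold (edgeR adjusted p = 0.0579), and it passed in 5 of 20 alternatives. At 21 against 13 months the log2 fold change was 0.088.

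The Col4a3 call rests on 56 to 114 counts per library and on the scaling. Of 20 alternatives, 8 kept the call at 21 against 3 months, and the log2 fold change ranged from -1.09 to -0.36, with adjusted p from 0.00103 to 0.33. Library totals alone gave -0.36 (edgeR adjusted p = 0.23) and 21-month replicate 3 alone gave -0.66 (0.33). Leaving out a single library gave adjusted p of 0.17, 0.153 and 0.148 for 3-month replicates 1 to 3, 0.0597, 0.0689 and 0.0579 for 13-month replicates 1 to 3, and 0.0529, 0.0977 and 0.0133 for 21-month replicates 1 to 3. Of its merged exons, 5.6% (563 bases) are shared with C430014B12Rik on the opposite strand, and without a known strand setting reads there cannot be assigned to either.

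Col4a4 (chromosome 1, 82448423 to 82586849), which starts 72 bases from Col4a3 on the other strand, had 7.95, 11.4 and 11.4 CPM at 3 months. It had 5.08, 7.56 and 7.21 CPM at 13 months and 5.50, 4.90 and 7.58 CPM at 21 months. As with Col4a3, no later library reached the lowest 3-month one. The log2 fold changes were -0.63 ± 0.23 at 13 against 3 months (edgeR adjusted p = 0.548) and -0.78 ± 0.23 at 21 against 3 months (edgeR adjusted p = 0.0917). The 71 bases that separate the annotated starts of Col4a3 and Col4a4 (RefSeq, GRCm38.p6, chr1:82586850-82586920, minus strand, in the direction of Col4a4) are shown because both genes are read outward from them.
Col4a4: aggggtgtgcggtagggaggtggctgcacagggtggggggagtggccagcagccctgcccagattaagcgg

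This stretch has 69.0% G and C and holds none of the 3 motifs. The 71 bases before the start held CCAAT in 13.9%, TATAAA in 4.72% and GGGCGG in 21.2% of all genes. By contrast the Col3a1 window has 35.2% G and C.

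Col4a1 (chromosome 8, 11198423 to 11312826) had 71.2, 81.7 and 84.2 CPM at 3 months, 41.4, 82.0 and 80.9 CPM at 13 months and 64.7, 197 and 92.4 CPM at 21 months. Ages overlapped, with 13-month replicate 1 lowest and 21-month replicate 2 highest. Col4a2 had 42.2, 43.1 and 44.5 CPM, then 22.5, 49.6 and 42.6 CPM, then 34.4, 93.7 and 54.0 CPM. The log2 fold changes at 13 against 3 months were -0.21 ± 0.38 for Col4a1 and -0.18 ± 0.36 for Col4a2, and both turned positive (0.044 and 0.09) without 13-month replicate 1.

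Col4a5 (chromosome X, 141475385 to 141689234) had 32.0, 34.6 and 34.3 CPM at 3 months, 15.9, 22.7 and 27.2 CPM at 13 months and 31.2, 32.3 and 22.8 CPM at 21 months. Its 13-month libraries were below the 3-month ones, with a log2 fold change of -0.61 ± 0.19 and an edgeR adjusted p of 0.417. Col4a6 (ENSMUSG00000031273, chromosome X, 141165403 to 141474076) had 29.2, 29.8 and 33.4 CPM at 3 months, 20.9, 28.2 and 25.9 CPM at 13 months and 291, 26.9 and 25.2 CPM at 21 months. Its value in 21-month replicate 1, from 7833 counts, exceeds those of the other 8 libraries, which had 354 to 747 counts. The library is the one with 15700 CPM of summed prostate markers, and the part of prostate RNA in the Col4a6 level was not tested. The log2 fold change at 21 against 3 months was 1.89 ± 0.81 (edgeR adjusted p = 0.186) with that library and -0.24 without it. With 21-month replicate 3 alone it was -0.29.

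The starts of Col4a5 and Col4a6 lie 1309 bases apart. The upstream stretches of both are shown because the genes share this interval while their levels part in 1 library. They are 216 bases for Col4a5 outside annotated exons (chrX:141475169-141475384, plus strand) and 250 bases for Col4a6 (chrX:141474077-141474326, minus strand), from RefSeq, GRCm38.p6. Capitals mark CCAAT in the first and GGGCGG, read on the other strand as CCGCCC, in the second.
Col4a5: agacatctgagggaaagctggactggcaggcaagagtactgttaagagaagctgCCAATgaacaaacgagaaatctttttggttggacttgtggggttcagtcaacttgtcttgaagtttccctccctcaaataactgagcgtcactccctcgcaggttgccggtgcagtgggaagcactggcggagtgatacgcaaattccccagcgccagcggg
Col4a6: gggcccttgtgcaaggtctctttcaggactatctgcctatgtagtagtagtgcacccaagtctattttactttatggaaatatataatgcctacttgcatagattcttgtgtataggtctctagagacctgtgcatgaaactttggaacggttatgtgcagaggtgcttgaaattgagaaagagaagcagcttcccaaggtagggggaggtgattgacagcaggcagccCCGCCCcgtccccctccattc

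The Col4a5 stretch held 1 CCAAT, which the same window of 31.0% of genes holds, and the Col4a6 window held 1 GGGCGG, which 32.9% hold. Neither held TATAAA.

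**Figure D3:**
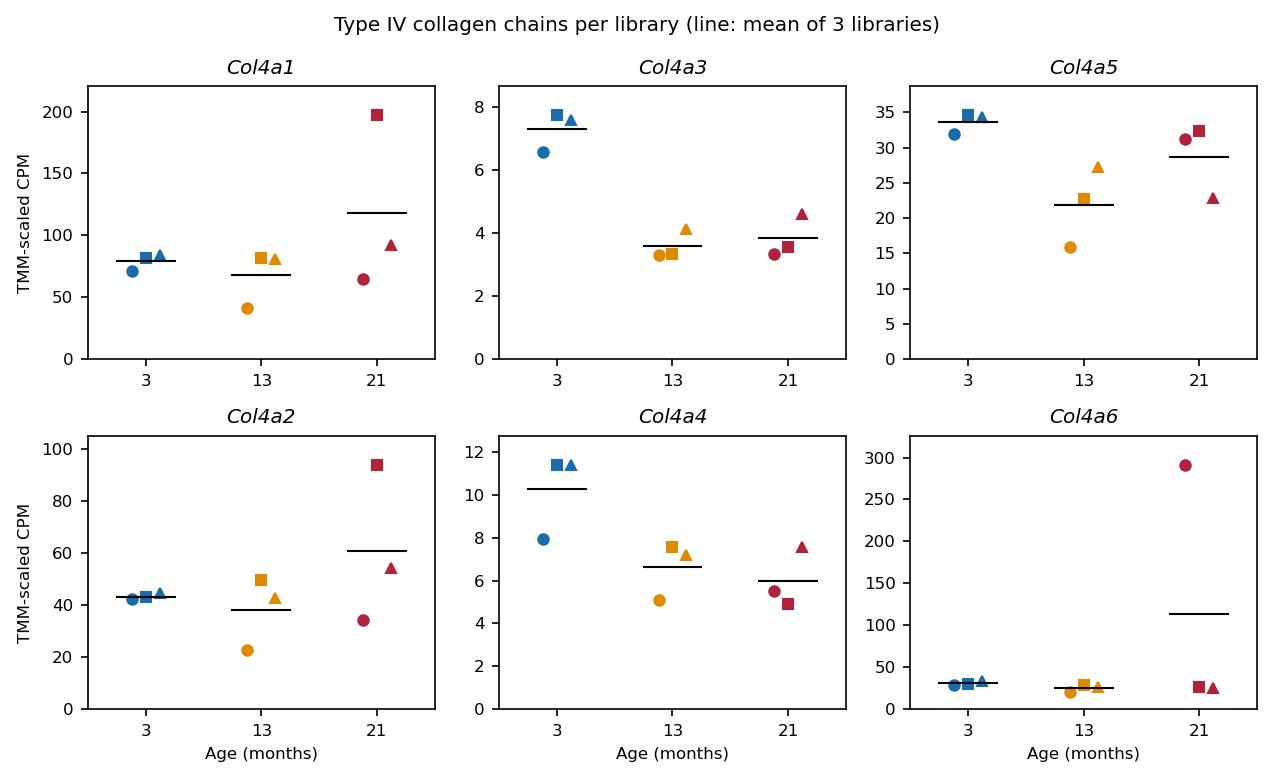
Levels of the 6 type IV collagen genes in TMM-scaled CPM by age; each point is 1 library and the line is the mean of 3 libraries. Col4a3 and Col4a4 are highest in the 3-month libraries, Col4a1 and Col4a2 are highest in 21-month replicate 2, and Col4a6 reaches 291 CPM in 21-month replicate 1 beside 31.2 CPM of its partner Col4a5.

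Col7a1 (ENSMUSG00000025650, chromosome 9, 108953586 to 108984875), the collagen of anchoring fibrils, ran opposite to most of the family at 13 months. It is named, like Col8a1, after its values were seen. Its level was 59.1, 64.1 and 54.2 CPM at 3 months, 92.8, 106 and 81.7 CPM at 13 months and 35.9, 62.2 and 88.9 CPM at 21 months. All 13-month libraries exceeded all 3-month libraries, and the 21-month ones spanned both. The log2 fold change at 13 against 3 months was 0.66 ± 0.27 with an edgeR adjusted p of 0.625. It passed in 2 of 20 alternatives, the 6-library fit (adjusted p = 0.0207) and 21-month replicate 3 alone (0.0217). Its upstream window (RefSeq, GRCm38.p6, chr9:108953336-108953585, plus strand) is shown for contrast with that of Col3a1, with 1 CCAAT, read on the other strand as ATTGG, and 1 GGGCGG in capitals. The CCAAT match lies at the end of the window far from the start site.
Col7a1: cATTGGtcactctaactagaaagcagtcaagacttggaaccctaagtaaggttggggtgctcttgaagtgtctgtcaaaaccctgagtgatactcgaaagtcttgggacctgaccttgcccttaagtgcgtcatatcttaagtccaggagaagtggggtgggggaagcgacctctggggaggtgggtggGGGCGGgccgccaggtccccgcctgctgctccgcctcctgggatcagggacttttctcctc

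The multiplexins Col15a1 and Col18a1, which join basement membranes to the matrix below and release antiangiogenic fragments, were also lower without overlap at 13 months. Col15a1 had 46.2, 34.6 and 32.1 CPM at 3 months and 19.0, 29.9 and 26.1 CPM at 13 months. Col18a1 had 26.4, 26.1 and 24.2 CPM at 3 months, 14.0, 19.1 and 19.1 CPM at 13 months and 21.9, 30.3 and 19.7 CPM at 21 months. Their log2 fold changes at 13 against 3 months were -0.59 ± 0.27 and -0.55 ± 0.18, with edgeR adjusted p of 0.699 and 0.422.

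Among the other genes, the type VI chains Col6a1, Col6a2 and Col6a3 had the highest levels. Type VI microfilaments surround fat, muscle and nerve cells and link them to the matrix. Col6a1 (chromosome 10) had 104, 99.5 and 98.7 CPM at 3 months, 42.8, 67.7 and 65.1 CPM at 13 months and 45.6, 96.5 and 73.9 CPM at 21 months. Every later library was below the 3-month ones. The log2 fold changes at 13 against 3 months were -0.78 ± 0.26 for Col6a1, -0.79 ± 0.28 for Col6a2 and -0.74 ± 0.25 for Col6a3, with edgeR adjusted p of 0.443, 0.508 and 0.466. Col6a3, the longest chain and the source of the fragment endotrophin, had 123, 92.5 and 111 CPM at 3 months and 43.6, 86.2 and 59.2 CPM at 21 months. Its log2 fold change at 21 against 3 months was -0.79 ± 0.25 with an edgeR adjusted p of 0.103.

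The minor type VI chains Col6a5 and Col6a6 resemble Col6a3 and may take its place in the molecule. Col6a5 had 19.3, 21.0 and 18.8 CPM at 3 months, 14.5, 14.6 and 11.8 CPM at 13 months and 27.9, 34.0 and 18.4 CPM at 21 months. The 21-month libraries lay above the 13-month ones (log2 fold change 0.97 ± 0.20, edgeR adjusted p = 0.196), with 21-month replicates 1 and 2 the highest. Col6a6 had 3.53 and 4.58 CPM in 21-month replicates 1 and 2, and 0.261 to 1.49 CPM in the other 7 libraries. At 21 against 3 months its log2 fold change of 1.27 turned to -1.25 with replicate 3 alone, and that of Col6a5 turned from 0.44 to -0.097. Both genes were highest in 21-month replicates 1 and 2, the libraries of highest summed adipocyte markers, whose part was not tested. Col6a4 stayed between 1.0 and 2.53 CPM.

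Of the fibril-associated genes, Col14a1, which binds fibril surfaces, had 7.31, 8.59 and 5.73 CPM at 3 months, 3.67, 5.27 and 4.79 CPM at 13 months and 7.72, 18.6 and 8.99 CPM at 21 months. Its 13-month libraries were the lowest. Its log2 fold change at 21 against 13 months was 1.36 ± 0.33 (edgeR adjusted p = 0.196). Col12a1, Col16a1 and Col20a1 differed by log2 fold changes of 0.28, -0.32 and 0.52 at 13 against 3 months and had overlapping libraries.

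Of the transmembrane collagens, Col17a1 is the hemidesmosome component of basal keratinocytes and other basal cells. It was named after its values were seen and had 5.07, 5.25 and 5.17 CPM at 3 months, 2.19, 3.34 and 4.16 CPM at 13 months and 3.82, 2.20 and 2.68 CPM at 21 months. No later library reached the lowest of 3 months, and the log2 fold changes were -0.67 and -0.83 with edgeR adjusted p of 0.632 and 0.112. Beside it, the summed level of 4 basal epithelial markers was 49.0 to 59.0 CPM at 3 months and 32.3 to 37.2 CPM at 13 months. In 21-month replicates 1 to 3 it was 68.9, 28.7 and 35.0 CPM. Replicate 1, the library of highest summed prostate markers, had 23.4 CPM of Krt15, where the other libraries had 0.209 to 2.36 CPM. Krt5, Krt14 and Krt15 were lower without overlap at 13 against 3 months (beside 9.33% of all tested genes), and Krt14 at 21 against 3 months (beside 14.7%). Of these 4 markers 1 fell at 13 against 3 months by the edgeR test, beside 0.454% of all tested genes called. At 21 against 3 months 0 of them passed, beside 2.02%. The part of these markers in the Col17a1 level was not tested. Col23a1 had 16.1, 12.4 and 14.6 CPM at 3 months, 10.1, 8.19 and 7.88 CPM at 13 months and 11.9, 8.11 and 7.58 CPM at 21 months. All later libraries were below those of 3 months, with log2 fold changes of -0.72 ± 0.20 (edgeR adjusted p = 0.259) and -0.65 ± 0.19 (0.094). Library totals in place of TMM gave 0.013 at 21 against 3 months.

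Col8a1, a short-chain network collagen of vessel walls and of Descemet's membrane in the eye, had 1.15, 2.55 and 2.55 CPM at 3 months. It had 1.18, 5.42 and 3.63 CPM at 13 months and 3.19, 10.9 and 9.13 CPM at 21 months. All 21-month libraries were above all 3-month ones. In 21-month replicate 3 the summed level of fibroblast markers was 777 CPM (324 to 428 CPM at 3 months), that of macrophage markers 141 CPM (66.4 to 78.4) and that of 8 endothelial markers 89.5 CPM (69.0 to 73.9), and their part in the Col8a1 level was not tested. The log2 fold change was 1.90 ± 0.59 (edgeR adjusted p = 0.102), and it passed in 4 of 20 alternatives: DESeq2 (adjusted p = 0.0161), the replicate block (0.018), library totals (0.0135) and leaving out 21-month replicate 1 (0.0472). Its partner Col8a2 overlapped between ages.

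Ratios of 2 chains within a library do not depend on the scaling. The pairs were chosen with the values known, and an exact permutation test of 3 against 3 libraries cannot go below p = 0.1, so ratios are given without a test. Their values do depend on the length used: with the longest transcript in place of merged exons the mean ratio moved from 0.285 to 0.452 for Col6a2 to Col6a1, from 4.17 to 6.64 for Col3a1 to Col1a1 and from 1.84 to 3.85 for Col1a2 to Col1a1, by the same factor in every library. Per kilobase of merged exons, Col6a2 to Col6a1 stayed between 0.270 and 0.304 in all 9 libraries, while Col6a1 itself ranged from 42.8 to 104 CPM. Col4a1 to Col4a2 stayed between 1.47 and 1.86. Other pairs of chains of the same molecule varied more. Col1a2 to Col1a1 was 2.22, 2.15 and 1.92 at 3 months, 1.95, 1.3 and 1.91 at 13 months, then 1.80, 1.76 and 1.5 at 21 months. Its 3-month libraries lay above all 21-month ones and overlapped with 13 months. Col4a3 to Col4a4 ran from 0.470 to 0.880, with the 13-month libraries below all 3-month ones.

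Col3a1 to Col1a1 was 8.19, 5.76 and 5.03 at 3 months, 3.77, 2.05 and 3.24 at 13 months, then 3.74, 3.35 and 2.37 at 21 months. The 3-month libraries lay above all later ones, including 21-month replicates 1 and 2. Col5a2 to Col5a1 was 2.18, 2.01 and 1.88 at 3 months, 1.47, 0.885 and 1.07 at 13 months, then 1.06, 0.801 and 1.04 at 21 months, again without overlap. Col3a1 to Col5a2 averaged 5.90 ± 0.678 at 3 months, 3.89 ± 0.323 at 13 months and 3.99 ± 0.381 at 21 months (SD, n = 3). Col4a3 to Col4a1 averaged 0.0692 ± 0.0017, 0.0428 ± 0.0152 and 0.0298 ± 0.0141 at 3, 13 and 21 months. Col4a6 to Col4a5 was 7.87 in 21-month replicate 1 and 0.703 to 1.11 in the other libraries.

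**Figure D4:**
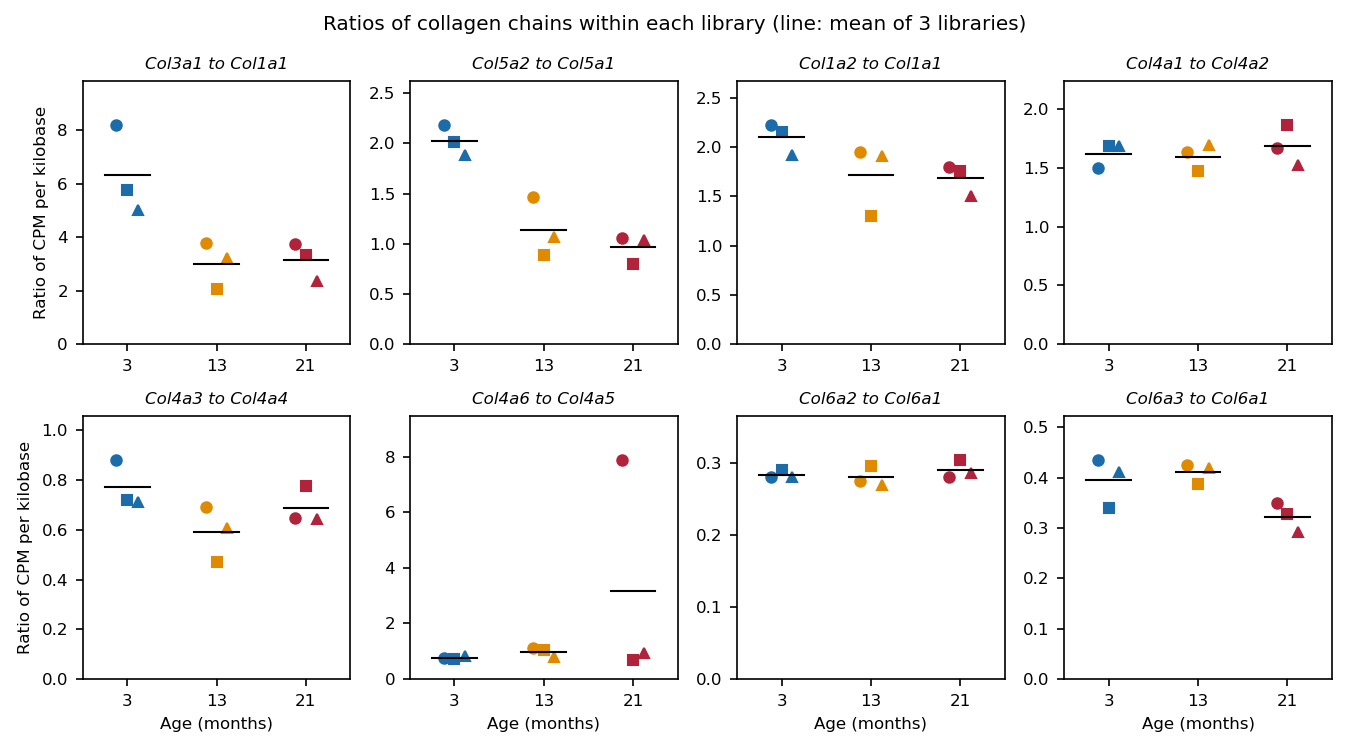
Ratio of CPM per kilobase of 8 pairs of collagen chains within each library, by age; points are libraries and lines are means of 3. Col3a1 to Col1a1 and Col5a2 to Col5a1 are highest in the 3-month libraries, Col6a2 to Col6a1 stays between 0.270 and 0.304, and 21-month replicate 1 stands apart in Col4a6 to Col4a5.

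Summed over all members of a class, the fibrillar level was 43.8, 37.9 and 37.7 CPM per kilobase at 3 months, 10.7, 21.5 and 20.4 at 13 months, then 18.5, 47.3 and 21.0 at 21 months. The 3- and 13-month libraries did not overlap, and 21-month replicate 2 was above all others. The basement membrane sum was 42.5, 43.6 and 42.9 CPM per kilobase at 3 months, 28.8, 44.2 and 40.4 at 13 months, then 65.2, 65.5 and 43.3 at 21 months. In 21-month replicate 1, Col4a6 made up 36.5 of these CPM per kilobase. Sums and shares rest on merged exon length and were not computed with the longest transcript. Merged exons have 12426 bases for Col1a2 and 9816 for Col3a1, where the longest transcripts have 5348 and 5564. The order of the classes may therefore depend on the length used. The fibrillar share of the summed collagen level per kilobase was 29.2% ± 1.54, 19.0% ± 2.58 and 21.0% ± 5.79 (SD, n = 3) at 3, 13 and 21 months. That of the basement membrane genes was 31.6% ± 1.33, 41.9% ± 1.10 and 45.0% ± 10.3, with all later libraries above those of 3 months. Of the same summed collagen level over all classes, the mean share of Col7a1, a member of this class, was 4.22%, 10.4% and 4.85% at 3, 13 and 21 months. That of the type IV genes was 20.4%, 24.4% and 34.5%, and that of the multiplexins 7.0%, 7.14% and 5.58%. All collagen genes together took 0.0952% ± 0.00356, 0.0669% ± 0.0205 and 0.138% ± 0.0507 of raw counts, without TMM scaling, at the 3 ages. At 21 months this share was 0.144%, 0.186% and 0.0848% in replicates 1 to 3. After TMM scaling the summed level was 1100 ± 39.9, 733 ± 166 and 1060 ± 291 CPM at 3, 13 and 21 months (SD, n = 3).

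**Figure D5:**
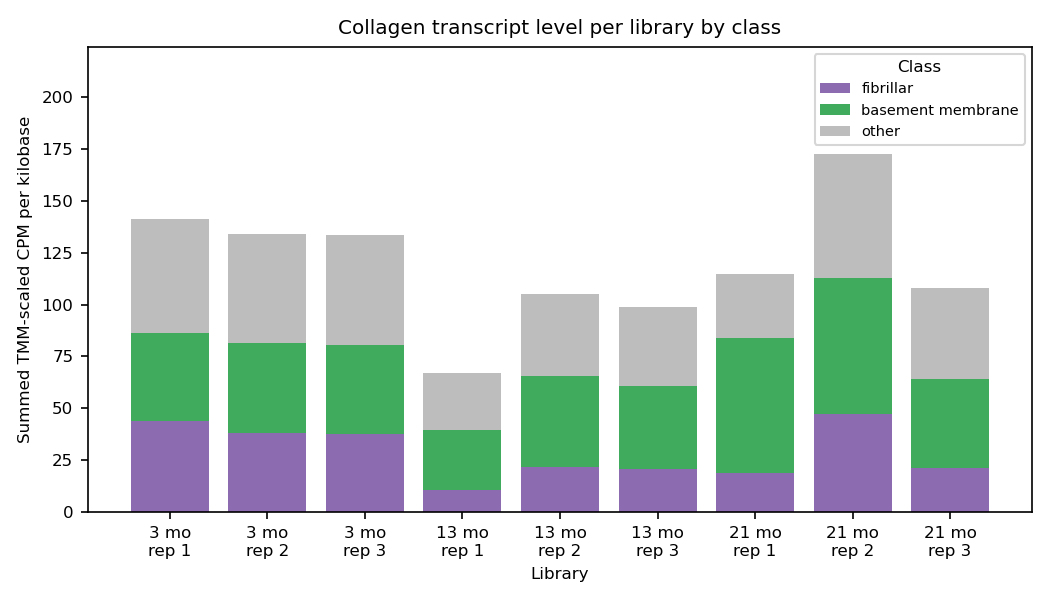
Summed TMM-scaled CPM per kilobase of the collagen genes in each library, stacked by class. The fibrillar part is 37.7 to 43.8 in the 3-month libraries and 10.7 to 21.5 in the 13-month ones, and 21-month replicate 2 has the tallest bar.

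Genes that modify, export, cross-link, bind or degrade collagen were read from the same test. Of 18 tested genes for procollagen hydroxylation, glycosylation and folding, 9 for export, 12 for propeptide removal and crosslinking and 11 collagen receptors, 0 passed the edgeR test in any comparison. Of all tested genes, 0.454%, 2.02% and 0.00622% passed at 13 against 3, 21 against 3 and 21 against 13 months. In lists this short, 0 calls are near those shares. At an unadjusted p under 0.05 these lists held 1, 0, 1 and 0 genes at 13 against 3 months (beside 7.24% of all tested genes), 2, 3, 3 and 4 genes at 21 against 3 months (beside 24.4%), and 4, 3, 5 and 4 genes at 21 against 13 months (beside 15.7%). Of 8 tested genes of collagen breakdown, 4, 6 and 2 had an unadjusted p under 0.05 in these comparisons. At 13 against 3 months they were Timp1, the collagen-cleaving protease Ctsk and the matrix metalloproteinases Mmp2 and Mmp14, all lower. At 21 against 3 months they were Timp1, Ctsk and Mmp14, lower, and Mmp9, Timp2 and Timp3, higher. Of these, Timp1 passed the adjusted threshold, at 21 against 3 months (1 of the 8 tested, beside 2.02% of all tested genes). It encodes an inhibitor of matrix metalloproteinases. Timp1 had 27.4, 16.2 and 12.9 CPM at 3 months, 3.84, 4.38 and 3.31 CPM at 13 months and 1.56, 3.96 and 6.45 CPM at 21 months. It fell by 2.25 ± 0.44 on the log2 scale at 21 against 3 months (edgeR adjusted p = 0.0426), and 9 of 20 alternatives kept the call, with adjusted p from 5.51e-05 to 0.214. At 13 against 3 months its log2 fold change was -2.30 ± 0.45 with an edgeR adjusted p of 0.0758. Without 3-month replicate 1, the library of highest Timp1, the 21 against 3 months value was -1.88 with an adjusted p of 0.214. Median log2 fold changes at 13 against 3 months were -0.14 for modification and folding, 0.01 for export, -0.31 for crosslinking, 0.12 for receptors and -0.46 for breakdown.

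Mmp14, which cleaves type I collagen at the cell surface, had 16.5, 19.3 and 17.6 CPM at 3 months, 9.99, 12.4 and 12.5 CPM at 13 months and 12.7, 16.1 and 12.2 CPM at 21 months. No later library reached the lowest of 3 months, and the log2 fold change at 13 against 3 months was -0.61 ± 0.15 (edgeR adjusted p = 0.181). Ctsk had 3.90 to 4.78 CPM at 3 months, 1.77 to 2.42 CPM at 13 months and 1.97 to 3.32 CPM at 21 months, again without overlap, with a log2 fold change at 13 against 3 months of -1.02 ± 0.24 (edgeR adjusted p = 0.172). Library totals in place of TMM turned Mmp14 at 21 against 3 months from -0.38 to 0.24.

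In each of the lists with no call, the pair of genes of smallest p in any comparison is given by its values. Ddr1, a receptor tyrosine kinase for collagen, had 11.8 to 12.9 CPM at 3 months, 7.15 to 10.6 CPM at 13 months and 14.4 to 24.1 CPM at 21 months. Its log2 fold change at 21 against 13 months was 0.94 ± 0.22 (edgeR adjusted p = 0.196), without overlap and with the highest value in 21-month replicate 1, the library of highest summed prostate markers, whose part was not tested. Lair1, an inhibitory collagen receptor of leukocytes, had 1.84 to 2.35 CPM at 3 months and 2.45 to 6.31 CPM at 21 months (log2 fold change 1.25, edgeR adjusted p = 0.0896). Of 6 macrophage markers 3 rose at 21 against 3 months by the edgeR test, beside 2.02% of all tested genes called. Their summed level was 66.4 to 78.4 CPM at 3 months and 136 to 238 CPM at 21 months, and their part in the Lair1 level was not tested.

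Of the export genes, Sar1b, a GTPase of the coat that carries procollagen from the endoplasmic reticulum, had 38.6 to 48.1 CPM at 3 months and 26.4 to 33.1 CPM at 21 months (log2 fold change -0.55, edgeR adjusted p = 0.0702). Tfg, which organises the sites of that export, had 85.2 to 90.0 CPM at 13 months and 61.0 to 75.8 CPM at 21 months (log2 fold change -0.37, edgeR adjusted p = 0.21). Library totals turned both to positive values, 0.031 and 0.16. Of the modifying genes, P4hb, a subunit of prolyl 4-hydroxylase, had 1080.0 to 1600.0 CPM at 3 months and 657 to 959 CPM at 21 months (log2 fold change -0.66, edgeR adjusted p = 0.101). Over 20 alternatives its log2 fold change ran from -0.81 to -0.069. In that comparison 8 of 9 seminal vesicle secretory markers were lower without overlap (beside 14.7% of all tested genes). Their part in the P4hb and Sar1b levels was not tested. P3h3, of the prolyl 3-hydroxylase family, had 3.7 to 4.79 CPM at 13 months and 4.81 to 8.32 CPM at 21 months (log2 fold change 0.76, edgeR adjusted p = 0.21). Of the processing and crosslinking genes, Tll1, a procollagen C-proteinase, had 0.426 to 0.979 CPM at 3 months and 1.45 to 1.86 CPM at 21 months (log2 fold change 1.27, edgeR adjusted p = 0.0755). Loxl1, a lysyl oxidase, had 1.60 to 3.36 CPM at 13 months and 4.27 to 11.7 CPM at 21 months (log2 fold change 1.45, edgeR adjusted p = 0.212).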

How the data were processed

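The authors deposited unnormalized whole-number counts of reads, 1 row for each Ensembl gene and 1 column for each of 9 libraries. The submitters' processing notes name HISAT2, featureCounts and GRCm38 (mm10); their versions, the annotation counted on, strandedness and the handling of multi-mapped reads are not given in the sources used here. Per the labels, total RNA was extracted with TRIzol and sequenced as lncRNA-seq. Columns were assigned to ages by their names. GENCODE M21 gave symbols, coordinates and exon lengths for 53274 identifiers, and 105 unmatched ones held 0.0084% of counts.

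Genes were kept by filterByExpr of edgeR 4.0.16 (R 4.3.3; minimum count 10, minimum total 15), scaled by TMM, and compared with the quasi-likelihood F test in a model of 3 ages over 9 libraries (residual degrees of freedom 6, prior 3.63, biological coefficient of variation 22.4%). P-values were adjusted over all 16067 tested genes. Standard errors (SE) were taken from the fold change and the F statistic, and CPM is per 1000000 counts of TMM-scaled library size. The fit was first tested on simulated counts. Alternatives were DESeq2 1.42.0, limma-voom (limma 3.58.1), other scalings, low-count filters and sets of libraries, a replicate block and a robust spread.

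The members and lists were chosen with earlier results of these data known. Named genes are those called, the 3 of highest level per class, types I, III, IV, V and VI, and the 3 of smallest p per comparison; of each list of collagen-handling genes those called, or else the 2 of smallest p. Other genes named were chosen after their values were seen.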

Additional observations from a re-analysis of the deposited data

How the results depend on the processing

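The median log2 fold change of the collagen genes at 13 against 3 months stayed negative in all alternatives, between -0.63 and -0.40 when single libraries were left out. Library totals alone moved the medians at 21 against 3 and 21 against 13 months to 0.59 and 0.98, and leaving out single libraries gave -0.29 to 0.15 and 0.17 to 0.73. The numbers of collagen genes called at 13 against 3, 21 against 3 and 21 against 13 months were 0, 1 and 0. They were 2, 5 and 3 with DESeq2, and 15 and 6 in the later pair of comparisons with library totals. The fit of 6 libraries gave 7 and 0, and 21-month replicate 3 alone gave 7 and 0, at 13 and 21 against 3 months. The filter of at least 1 count gave 1 at 13 against 3 months, and at least 10 counts in all libraries gave 0 at 21 against 3 months. Leaving out single libraries gave 0 to 2, 0 to 4 and 0 to 5. Correlations of deviations from the age means ran from -0.17 to 0.208 for same-numbered libraries and from -0.279 to 0.217 for different-numbered ones. With 3 libraries per age these values cannot settle whether replicate numbers pair the libraries. With a replicate block 3 collagen genes were called at 21 against 3 months (Col4a3 and Col23a1 lower, Col8a1 higher), and over all genes 45 were called at 13 against 3 months and 3 at 21 against 13 months. Counts of genes without overlap, an alternative chosen after seeing the data, can only stay or rise with fewer libraries. They were 5 higher at 13 against 3 months without 13-month replicate 1. With 21-month replicate 3 alone they were 11 higher and 20 lower against 3 months, and 17 higher and 2 lower against 13 months.

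Over all genes, 73, 325 and 1 were called. DESeq2 called 211, 1503 and 428. Library totals called 5695 and 1240 in the later pair, and limma-voom 154 and 3. At least 1 count called 728 and 5 there, and at least 10 counts 33 and 69 in the comparisons with 3 months. The fit of 6 libraries called 235, 112 and 0, and 21-month replicate 3 alone 229 and 57. Leaving out single libraries gave 1 to 150, 0 to 2349 and 0 to 1244. The cause was not tested.

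Signs of single genes that missed the threshold turned as follows. At 21 against 3 months library totals gave 0.31 for Col1a2, 0.42 for Col4a5, 0.18 for Col5a2, 0.086 for Col6a1, 0.13 for Col6a2, 0.27 for Col6a4, 0.53 for Col18a1, 0.013 for Col15a1, 0.013 for Col23a1, 0.24 for Mmp14 and 0.031 for Sar1b. With 21-month replicate 3 alone the values were -0.15 for Col1a1, -0.29 for Col4a6, -0.63 for Col5a3, 0.043 for Col6a4, -0.097 for Col6a5 and -1.25 for Col6a6. Col1a1 was also -0.082 with limma-voom and -0.11 with the replicate block, and Col7a1 was -0.015 with limma-voom. At 13 against 3 months limma-voom gave -0.25 for Col11a1. At 21 against 13 months library totals gave 0.34 for Col4a4, 0.45 for Col6a3, 0.16 for Tfg and 0.41 for Col17a1, limma-voom -0.036 for Col15a1 and -0.19 for Timp1, and the replicate block -0.017 for Col15a1. Replicate 3 alone gave 0.20 for Col4a4, -0.14 for Col15a1, -0.20 for Col5a3 and -0.19 for Col23a1. Leaving out single libraries gave, at 13 against 3 months, -0.37 to 0.044 for Col4a1, -0.41 to 0.09 for Col4a2, -0.45 to 0.21 for Col5a1 and -0.93 to 0.82 for Col11a1. It gave, at 21 against 3 months, -0.43 to 0.30 for Col1a1, -0.0097 to 0.88 for Col4a1, -0.24 to 2.36 for Col4a6, -0.29 to 1.61 for Col5a3, -0.46 to 0.033 for Col6a4, -0.28 to 0.36 for Col7a1 and -0.30 to 0.015 for Col18a1. At 21 against 13 months it gave -0.15 to 0.19 for Col23a1, -0.071 to 0.19 for Col4a3, -0.35 to 0.16 for Col6a3, -0.33 to 0.22 for Col15a1, -0.42 to 0.057 for Col17a1 and -0.48 to 0.43 for Timp1.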
